A study of Mus musculus with 16 samples.

Results

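The lysosome is an acidic organelle in which endocytosed material is broken down, and its limiting membrane carries the machinery that makes and maintains it. The 33 genes described here encode parts of that membrane or regulators of its genes. They comprise 18 subunits of the vacuolar H+-ATPase (V-ATPase), its 2 accessory proteins, 6 resident membrane proteins, 5 transporters or channels and the transcription factors Tfeb and Tfe3. The genes were taken by symbol from the 24421 genes of the count files. Of these 33 genes, 28 had enough counts to be among the 13429 genes tested, and the other 5 are described by their counts.

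The V-ATPase pumps protons into endosomes and lysosomes. Its cytosolic V1 domain hydrolyses ATP and turns a central rotor, and its membrane V0 domain carries the protons across. TFEB and TFE3 are related transcription factors that move to the nucleus when nutrients are scarce or lysosomes are stressed, and their targets include many V-ATPase and lysosomal genes. In the suckling small intestine, enterocytes take up whole milk proteins, and these cells are replaced around weaning. Those of the ileum digest the proteins in large lysosomal vacuoles. For the jejunum, the study reports more transport of intact protein across the epithelium and less breakdown.

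RNA was sequenced from EDTA-released intestinal epithelium of wild-type C57BL6/J mice at postnatal day 6 (P6, before weaning) and day 36 (P36, after weaning). Jejunum and ileum were taken from each of 4 mice per age, 2 male and 2 female, so that the 16 libraries form 4 groups of 4. A replicate number marks 1 mouse within an age, and different mice were used at the 2 ages. Library totals ran from 12159237 to 25947276 counts assigned to genes. All levels are CPM, the counts of a gene relative to the scaled size of its library, listed for replicates 1 to 4 in that order, and errors on means are SD over 4 libraries.

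The epithelial markers Epcam (1137 to 1380.2 CPM in the P6 jejunum, 1382 to 2229.5 CPM in the P36 ileum) and Cdh1 were high in all groups. The 6 epithelial markers summed to 4824 to 4977 CPM in jejunum and 3846 to 6208 CPM in ileum at P6. The lowest of these sums was that of ileum replicate 4. At P36 the sums were 10518 to 11962 CPM in jejunum and 11123 to 15910 CPM in ileum. With age, 3 of the 6 were called higher and 1 lower in the jejunum, and 3 higher and 0 lower in the ileum. The ileum replicate 4 library at P6 stood apart: across 12948 genes its deviation from the other P6 ileum libraries fell with the GC content of the gene (Spearman's rho -0.754), and over the 28 tested members rho was -0.656. In the ileum replicate 2 library at P6 the 8 stromal and muscle markers summed to 404 CPM, against 18.1 to 40.7 CPM in the other P6 ileum libraries. The ileum replicate 3 library at P36 stood apart in its markers: 6 enterocyte markers summed to 3712 CPM against 10669.6 to 28791 CPM in the other P36 ileum libraries, and its Paneth cell sum was 15144 CPM against 5424 to 8259 CPM. In RNA of whole epithelium, fewer cells of a type and less RNA per cell cannot be told apart. The list of 8 macrophage markers, a cell type rich in lysosomes, summed to 158 to 503 CPM at P6 and 4.28 to 22.2 CPM at P36. That sum was carried by Csf1r, at 415 to 498 CPM in jejunum and 152 to 333 CPM in ileum at P6. The other 7 markers, among them Adgre1, the C1q genes and Lyz2, each stayed at or below 4.78 CPM at P6. Sums of goblet, Paneth and tuft cell markers and of the epithelial markers were higher at P36 than at P6 in every library. Stem cell marker sums were higher at P36 within each region. Of 6 lymphocyte markers, 6 were called higher at P36 in the jejunum and 1 in the ileum. Some other sums were lower at P36. The 4 neural markers went from between 110.0 and 221 CPM at P6 to between 3.44 and 10.1 CPM. The sum of the 6 enterocyte markers in jejunum went from between 90486 and 111798 CPM to between 29710.2 and 39384 CPM. The 6 did not fall together, as 3 were called lower and 2 higher at P36 in the jejunum. Of 5 tested stromal and muscle markers, 5 fell in the ileum and 1 in the jejunum, and of 3 tested endothelial markers 3 and 2 fell. The part of these cell types in the results below was not tested.

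The first question was how the lysosomal membrane genes differed between the suckling and the weaned intestine. In the jejunum, 25 of the 28 tested genes fell between P6 and P36, 1 rose and 2 were not called. In the ileum 27 fell and 1 rose. The gene that rose was Atp6v0a2 in both regions, and 25 genes fell in both. Among all genes tested, 26.9% were lower and 24.7% higher at P36 in the jejunum, 30.1% were lower and 25.5% higher in the ileum, and 21.3% were lower in both regions. The median log2 fold change (P36 over P6) of the 28 genes was -1.25 in the jejunum and -1.46 in the ileum, against -0.01 and -0.03 over all tested genes. Calls are at an adjusted p below 0.05 in the quasi-likelihood test of edgeR. With the study's added minimum of an absolute log2 fold change above 2, 5 genes were lower in the jejunum (8.59% of all genes tested) and 10 in the ileum (10.0%). Levels did not overlap between the ages for 26 genes in jejunum and 24 genes in ileum, of 28 each. Over all genes tested, 63.8% in jejunum and 44.4% in ileum did not overlap either.

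Summed over the 33 genes, the level was 8867 ± 498 CPM for jejunum at P6 and 10248 ± 579 CPM for ileum at P6. At P36 the sums were 3161 ± 88.1 CPM for jejunum and 2818 ± 288 CPM for ileum. As a share of all assigned counts, the genes took 0.797% ± 0.0387 of the P6 jejunum and 1.12% ± 0.0596 of the P6 ileum. The shares at P36 were 0.304% ± 0.00616 and 0.296% ± 0.00883. These shares do not use the scaling of library sizes that the CPM use, so the regions differ more in share than in CPM at P6. Of the P6 sums, Slc17a5 alone made up 1582 ± 544 CPM in jejunum and 2321 ± 553 CPM in ileum. Lamp1 had the highest level per kilobase of exonic length in all 4 groups, and Slc17a5 was next to it at P6. At P36 the mean of Slc17a5 had rank 25 in jejunum and rank 23 in ileum among the 33.

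**Figure D1:**
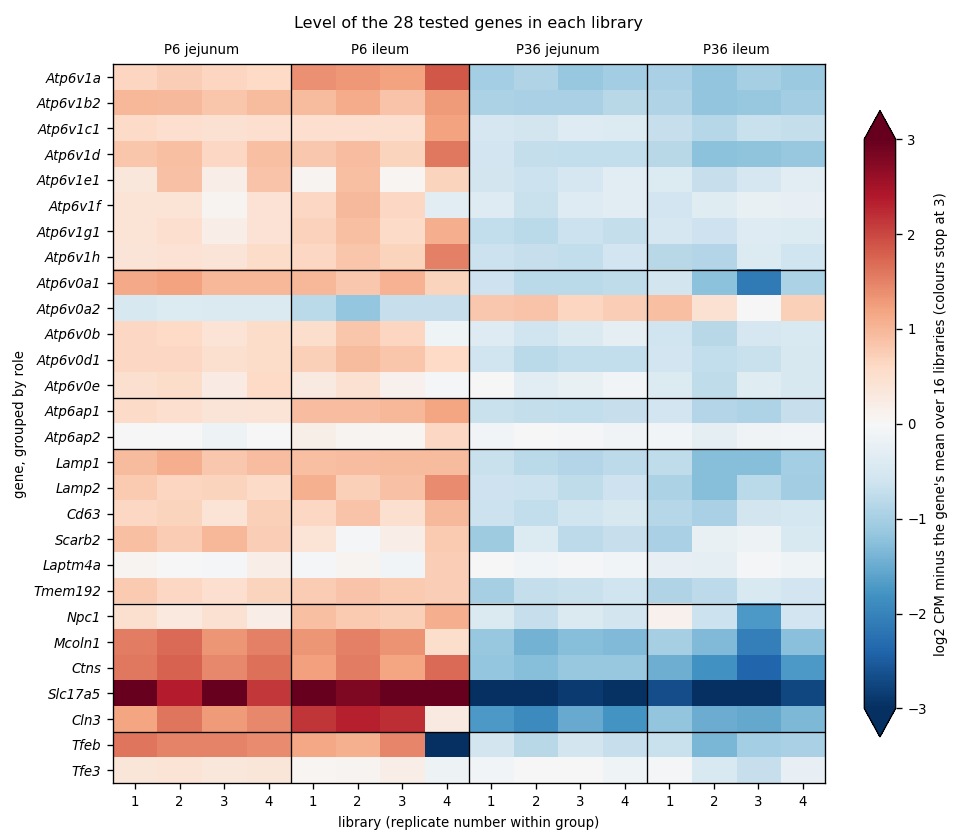
Each cell is the log2 CPM of 1 of the 28 tested genes in 1 library, minus the mean of that gene over the 16 libraries. Columns are the libraries in 4 groups of 4 and rows are grouped by role. Most rows are red at P6 and blue at P36, the row of Atp6v0a2 is the other way round, and the ileum replicate 4 column at P6 departs from its neighbours in Tfeb, Cln3 and several V1 genes.

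All 8 tested genes of the V1 domain fell in both regions, by log2 fold changes of -0.78 to -1.87 in the jejunum and -0.89 to -2.53 in the ileum. Atp6v1a encodes subunit A, which together with subunit B forms the ring that hydrolyses ATP. It was at 260.1, 277, 258 and 251 CPM in jejunum at P6, 428, 406, 381 and 605 in ileum at P6, 81.4, 89.0, 74.8 and 79.8 in jejunum at P36 and 84.4, 72.3, 83.0 and 75.8 in ileum at P36. All 8 P6 libraries lay above all 8 P36 libraries, and the P6 ileum lay above the P6 jejunum. The fall was 3.22-fold in the jejunum (log2 fold change -1.69 ± 0.14, SE, edgeR adjusted p = 6.82e-08) and 5.77-fold in the ileum (-2.53 ± 0.15, adjusted p = 1.15e-09).

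Subunit B has isoforms B1 and B2. Atp6v1b2 was at 579, 570.0, 521 and 563 CPM in jejunum at P6, 564, 631, 529 and 711 in ileum at P6, 151, 148, 148 and 163 in jejunum at P36 and 156, 128, 133 and 141 in ileum at P36. Within an age its libraries were close together, and the ages were far apart. It fell 3.66-fold in the jejunum (log2 fold change -1.87 ± 0.12, edgeR adjusted p = 4.72e-09) and 4.35-fold in the ileum (-2.12 ± 0.13, adjusted p = 1.43e-09). Atp6v1b1, the isoform known from kidney intercalated cells, had 0 counts in all 16 libraries, which allows a level of up to 0.122 to 0.237 CPM per library, counting error only. Subunit C, which holds V1 onto V0, also has 2 isoforms among the genes. Atp6v1c1 was at 102, 97.0, 95.2 and 97.8 CPM in jejunum at P6, 98.4, 97.1, 98.2 and 159 in ileum at P6, 48.4, 46.7, 52.7 and 52.1 in jejunum at P36 and 42.4, 38.3, 43.4 and 42.2 in ileum at P36. The ileum replicate 4 library at P6 was the highest of the 16. Atp6v1c1 fell 1.96-fold in the jejunum (edgeR adjusted p = 3.74e-05) and 2.72-fold in the ileum (adjusted p = 6.09e-07). Atp6v1c2 had 1 count in all, in the P6 jejunum.

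Subunits D and F form the rotor shaft. Atp6v1d was at 144, 152, 125 and 153 CPM in jejunum at P6, 142, 155, 129 and 243 in ileum at P6, 54.4, 49.4, 48.8 and 48.6 in jejunum at P36 and 46.0, 34.8, 35.6 and 37.1 in ileum at P36. Its P36 libraries all lay below its P6 libraries, and ileum replicate 4 was again the highest at P6. The fall was 2.85-fold in the jejunum (log2 fold change -1.51 ± 0.17, edgeR adjusted p = 2.42e-06) and 4.36-fold in the ileum (-2.13 ± 0.18, adjusted p = 7.12e-08). Atp6v1f went from 68.8 to 87.9 CPM (P6) down to 41.0 to 51.3 CPM (P36) in the jejunum (log2 fold change -0.78 ± 0.20) and from 52.5 to 128 CPM (P6) down to 44.3 to 56.3 CPM (P36) in the ileum (-0.89 ± 0.20). Its ages overlapped in the ileum, where replicate 4 at P6 had 52.5 CPM against 100.1 to 128 CPM in the other 3 P6 libraries.

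Subunits E and G build the peripheral stalks and subunit H regulates the pump. Atp6v1e1 was at 165, 238, 150.0 and 236 CPM in jejunum at P6, 138, 245, 137 and 209 in ileum at P6, 89.1, 84.0, 91.7 and 103 in jejunum at P36 and 97.6, 80.4, 92.5 and 104 in ileum at P36. At P6 mice 2 and 4 were above mice 1 and 3 in both regions, and the labels of these 2 pairs of mice carry different prefixes, whose meaning the labels do not give. The fall of Atp6v1e1 was 2.15-fold in the jejunum (edgeR adjusted p = 0.000263) and 1.95-fold in the ileum (adjusted p = 0.000768). Atp6v1g1 went from 113 to 138 CPM (P6) down to 56.0 to 62.5 CPM (P36) in the jejunum (log2 fold change -1.12 ± 0.12) and from 145 to 209 CPM (P6) down to 64.0 to 74.3 CPM (P36) in the ileum (-1.31 ± 0.12). Atp6v1h went from 138 to 157 CPM (P6) down to 64.3 to 71.2 CPM (P36) in the jejunum (log2 fold change -1.09 ± 0.17) and from 165 to 304 CPM (P6) down to 58.2 to 79.6 CPM (P36) in the ileum (-1.63 ± 0.18).

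**Figure D2:**
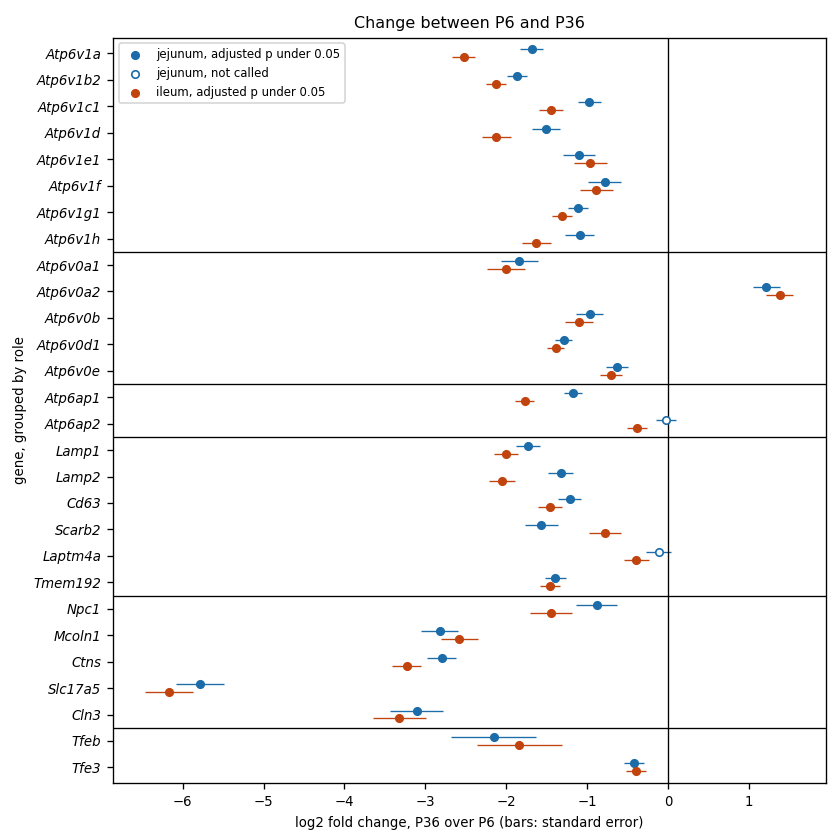
Points are log2 fold changes of P36 over P6 for the 28 tested genes in the jejunum (blue) and the ileum (red), with bars of 1 standard error. Filled points have an adjusted p below 0.05 and open points do not. Atp6v0a2 is the only gene right of 0 in both regions, Slc17a5 is furthest to the left, and Atp6ap2 and Laptm4a are open in the jejunum.

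Of the 8 V0 genes, 5 were tested. In each region 4 of them fell and 1 rose. Subunit a carries the proton path through V0 and has several isoforms, each made by its own gene and known to send the pump to particular membranes. Atp6v0a1 (mm10 chr11:101009452-101063717, plus strand) was at 405, 426, 364 and 368 CPM in jejunum at P6, 368, 323, 377 and 292 in ileum at P6, 119.8, 104, 105 and 109 in jejunum at P36 and 124, 77.6, 42.1 and 94.9 in ileum at P36. Every P6 library was above every P36 library, and the ileum replicate 3 library was the lowest at P36. Atp6v0a1 fell 3.57-fold in the jejunum (log2 fold change -1.84 ± 0.23, edgeR adjusted p = 6.72e-06) and 4.01-fold in the ileum (adjusted p = 2.78e-06).

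Atp6v0a2 (mm10 chr5:124629052-124724455, plus strand), whose product is known from the Golgi and endosomes, was at 179, 189, 186 and 186 CPM in jejunum at P6, 144, 113, 157 and 156 in ileum at P6, 443, 459, 394 and 419.5 in jejunum at P36 and 471, 343, 253 and 412 in ileum at P36. Here the P36 libraries were above all P6 libraries, the reverse of the genes that fell. It rose 2.32-fold in the jejunum (log2 fold change 1.21 ± 0.17, edgeR adjusted p = 1.79e-05) and 2.60-fold in the ileum (1.38 ± 0.17, adjusted p = 4.62e-06). Atp6v0a4, an isoform known from kidney, had 2 counts over the 4 P6 jejunum libraries and 6 over the P6 ileum. At P36 it had 27 counts in the jejunum, 16 of them in replicate 4, and 18 in the ileum. These counts were too few for the test.

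Together with Tcirg1, which encodes isoform a3 and is known from osteoclasts, these genes make up subunit a. Levels were divided by exonic length to compare isoforms. At P6, Atp6v0a1 was the highest, at 97.0 ± 7.41 CPM per kb in the jejunum and 84.4 ± 9.82 in the ileum, followed by Tcirg1 at 57.1 ± 2.91 and 37.5 ± 18.7. Atp6v0a2 was at 34.6 ± 0.745 and 26.6 ± 3.82 CPM per kb. At P36 the order was Atp6v0a2 (80.2 ± 5.31 in the jejunum and 69.2 ± 17.5 in the ileum), then Atp6v0a1 (27.1 ± 1.81 and 21.0 ± 8.52), then Tcirg1 (16.8 ± 1.17 and 13.9 ± 3.51). Tcirg1 and Atp6v0a2 overlapped in the P6 ileum, where replicate 4 had 32.5 CPM of Tcirg1 against 143 to 168 CPM in the other 3 libraries, and Tcirg1 and Atp6v0a1 overlapped in the P36 ileum.

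The share of Atp6v0a1 in the summed subunit a level was 51.4% ± 1.45 in the P6 jejunum, 57.4% ± 5.21 in the P6 ileum, 21.9% ± 1.34 for jejunum at P36 and 19.6% ± 2.93 for ileum at P36 (n = 4 each). The share of Atp6v0a2 went from 18.4% to 64.5% in the jejunum and from 18.5% to 66.9% in the ileum. For the Atp6v0a1 share, the difference with age was -29.5 percentage points in the jejunum and -37.9 in the ileum. Both had p = 0.0286 in a two-sided exact permutation test, the smallest p that 4 against 4 libraries can give, and p = 0.0381 after adjustment over 4 comparisons. The share was also higher in the ileum than in the jejunum at P6, by 6.09 percentage points (exact permutation p = 0.0286, adjusted 0.0381). That test takes the 8 libraries as independent, although both regions came from the same mice. Within mice 1 to 4, jejunum minus ileum was -3.63, -2.08, -3.64 and -15.0 points, and exact sign flips over 4 mice gave p = 0.125, the smallest they can give, so the difference was not called within mice. Without ileum replicate 4 it was 3.55 points (exact permutation, adjusted p = 0.0762), and leaving out any 1 P6 jejunum library gave an adjusted p of 0.114. The age difference had an adjusted p of 0.0571 in the jejunum without any 1 P6 jejunum library, and the same in the ileum without P6 ileum replicate 4. Its exact permutation p before adjustment stayed at 0.0286 in each. The regional p at P6, part of the same adjustment over 4 comparisons, was 0.0857 and 0.0571 in these settings. At P36 the jejunum was higher by 2.26 points, which did not pass the test (exact permutation p = 0.257).

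**Figure D3:**
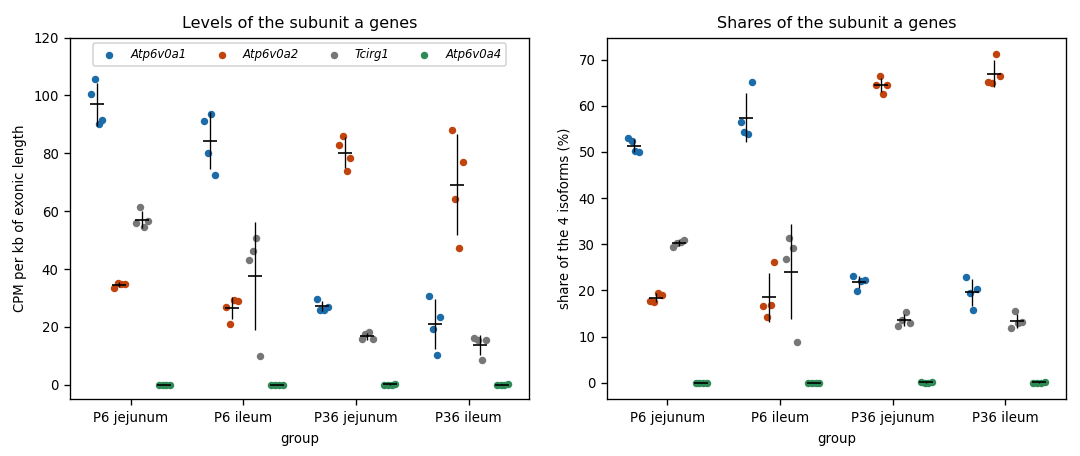
Left, CPM per kb of exonic length of the 4 subunit a genes in each library, and right, their share of the summed subunit a level in percent. Points are libraries, dashes means and bars SD over 4 libraries. Atp6v0a1 is the highest in both P6 groups and Atp6v0a2 in both P36 groups, while Atp6v0a4 lies near 0 throughout.

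Subunits c and c'' form the proton-carrying ring. Atp6v0b, which encodes c'', went from 190.4 to 218 CPM (P6) down to 94.4 to 117 CPM (P36) in the jejunum (log2 fold change -0.97 ± 0.17, edgeR adjusted p = 0.000162) and from 129 to 253 CPM (P6) down to 79.9 to 103 CPM (P36) in the ileum (-1.10 ± 0.17, adjusted p = 4.5e-05). Atp6v0c, which encodes the main ring subunit c, had 2 counts in 1 library and 0 in the other 15. This does not measure its level. In the annotation used for counting, 1117 of its 1151 exonic bases (mm10 chr17:24163866-24169429, minus strand) are also listed, on the same strand, as Atp6v0c-ps2, which had 0 counts as well. Reads that overlap 2 genes are not assigned by the counting tool in its default mode. The only other member with exonic bases shared on the same strand was Atp6v0a4, with 7.88% of them listed under a second gene. Overlap with genes on the opposite strand was not examined.

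Subunit d couples the rotor to the ring. Atp6v0d1 was at 195, 196, 179 and 186 CPM in jejunum at P6, 207, 245, 227 and 192 in ileum at P6, 84.1, 72.2, 76.0 and 76.6 in jejunum at P36 and 86.03, 75.6, 79.8 and 90.5 in ileum at P36. The P6 and P36 libraries formed 2 tight and separate ranges. It fell 2.45-fold in the jejunum (edgeR adjusted p = 7.58e-08) and 2.62-fold in the ileum (adjusted p = 3.68e-08). Atp6v0d2, the isoform known from osteoclasts and macrophages, had 2 counts in all, in a P36 jejunum library. Atp6v0e, a small subunit of V0, changed the least among the falling subunits in either region. It went from 106 to 135 CPM (P6) down to 70.4 to 89.2 CPM (P36) in the jejunum (log2 fold change -0.64 ± 0.14) and from 86.8 to 123 CPM (P6) down to 52.8 to 70.0 CPM (P36) in the ileum (-0.70 ± 0.14).

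Of the 2 accessory genes, 1 fell in the jejunum and both fell in the ileum. Atp6ap1 encodes Ac45, which is needed for V0 assembly. It was at 257, 243, 224 and 228 CPM in jejunum at P6, 327, 329.5, 343 and 392 in ileum at P6, 108, 106, 104 and 106 in jejunum at P36 and 115, 93.4, 90.9 and 107 in ileum at P36. Its P6 ileum lay above its P6 jejunum, and both lay above the P36 libraries. The fall was 2.25-fold in the jejunum (log2 fold change -1.17 ± 0.11, edgeR adjusted p = 3.02e-07) and 3.42-fold in the ileum (-1.77 ± 0.11, adjusted p = 3.63e-09). Atp6ap2, the prorenin receptor, was at 194, 197, 175 and 194 CPM in jejunum at P6, 218, 205, 201 and 299 in ileum at P6, 185, 191, 188 and 181 in jejunum at P36 and 183, 162, 180.1 and 182 in ileum at P36. In the jejunum the ages overlapped (log2 fold change -0.03 ± 0.13, adjusted p = 0.871). In the ileum it fell 1.30-fold (log2 fold change -0.38 ± 0.13, edgeR adjusted p = 0.017), a call lost when the ileum libraries were fitted alone (adjusted p = 0.13) and without P36 ileum replicate 2 (adjusted p = 0.0587).

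Among the 6 resident membrane proteins, 5 fell in the jejunum and 6 in the ileum. Lamp1 and Lamp2 encode the heavily glycosylated proteins that line the lysosome from inside. Lamp1 (mm10 chr8:13159135-13175338, plus strand) was at 2067, 2279.5, 1884 and 2051 CPM in jejunum at P6, 2024, 2034, 2075 and 2072 in ileum at P6, 674, 610.2, 585 and 627 in jejunum at P36 and 632, 443, 441 and 527 in ileum at P36. All P6 libraries were close to each other in both regions and well above P36. Lamp1 fell 3.32-fold in the jejunum (log2 fold change -1.73 ± 0.15, edgeR adjusted p = 7.64e-08) and 4.02-fold in the ileum (-2.01 ± 0.15, adjusted p = 1.79e-08).

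Lamp2, which also serves chaperone-mediated autophagy, was at 743, 682, 684 and 646 CPM in jejunum at P6, 908, 712, 794 and 1161 in ileum at P6, 283, 276, 257 and 283 in jejunum at P36 and 225, 179, 247 and 210.2 in ileum at P36. Each of the 4 P6 mice had more in the ileum than in the jejunum, and each of the 4 P36 mice had less. It fell 2.51-fold in the jejunum (log2 fold change -1.33 ± 0.16, edgeR adjusted p = 2.94e-06) and 4.15-fold in the ileum (-2.05 ± 0.16, adjusted p = 2.94e-08). Scarb2 encodes LIMP-2, the carrier of glucocerebrosidase. It was at 110.3, 100.4, 119 and 99.6 CPM in jejunum at P6, 79.1, 56.9, 67.9 and 102 in ileum at P6, 28.5, 44.9, 34.6 and 36.7 in jejunum at P36 and 30.4, 51.0, 53.4 and 43.3 in ileum at P36. The P6 jejunum had the highest mean, and in the P6 ileum replicate 4 was above the other 3 libraries. Scarb2 fell 2.96-fold in the jejunum (log2 fold change -1.57 ± 0.20, edgeR adjusted p = 8.6e-06) and 1.72-fold in the ileum (-0.78 ± 0.20, adjusted p = 0.00364).

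The tetraspanin gene Cd63 went from 351 to 429 CPM (P6) down to 159 to 188 CPM (P36) in jejunum and from 367 to 518 CPM (P6) down to 135 to 182 CPM (P36) in the ileum (log2 fold changes -1.22 ± 0.14 and -1.46 ± 0.15). Tmem192 went from 36.2 to 44.0 CPM (P6) down to 12.7 to 16.7 CPM (P36) and from 42.3 to 45.8 CPM (P6) down to 13.6 to 18.4 CPM (P36) (-1.39 ± 0.13 and -1.46 ± 0.13). Both fell in both regions. Laptm4a, a gene of a small transmembrane protein of late endosomes, was at 167 to 195 CPM at P6 and 161 to 169 CPM at P36 in the jejunum (log2 fold change -0.12 ± 0.16, edgeR adjusted p = 0.557). In the ileum it was called lower (log2 fold change -0.39 ± 0.16, adjusted p = 0.0426), but without ileum replicate 4 at P6, which had 285 CPM against 161 to 179 CPM in the other 3, the value was -0.16 (adjusted p = 0.11). The call was also lost without P36 ileum replicate 1, 2 or 4 (edgeR adjusted p = 0.0686 to 0.112).

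All 5 transporters and channels fell in both regions, and 4 of them fell by more than 2 on the log2 scale in each. Slc17a5 (mm10 chr9:78536487-78588045, minus strand) encodes sialin, which exports sialic acid freed from glycoproteins. It was at 2142, 1208, 1947 and 1033 CPM in jejunum at P6, 2868, 1641, 2659 and 2115 in ileum at P6, 23.8, 28.4, 32.4 and 30.2 in jejunum at P36 and 37.5, 28.5, 27.7 and 35.8 in ileum at P36. The lowest P6 library was above the highest P36 library by a wide margin, and at P6 mice 1 and 3 were above mice 2 and 4 in the jejunum and in the ileum. Slc17a5 fell 55.1-fold in the jejunum (log2 fold change -5.78 ± 0.29, edgeR adjusted p = 2.3e-10) and 71.7-fold in the ileum (-6.16 ± 0.30, adjusted p = 1.69e-10), the largest changes among the members.

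Cln3 encodes a lysosomal membrane protein that is lost in juvenile Batten disease. It was at 70.3, 93.7, 74.8 and 83.1 CPM in jejunum at P6, 137, 156, 144 and 36.9 in ileum at P6, 9.30, 8.25, 10.8 and 8.90 in jejunum at P36 and 13.6, 11.1, 10.6 and 12.0 in ileum at P36. In the P6 ileum 3 libraries were above all P6 jejunum libraries and replicate 4 was below them. Cln3 fell 8.63-fold in the jejunum (log2 fold change -3.11 ± 0.32, edgeR adjusted p = 7.9e-07) and 10.0-fold in the ileum (-3.32 ± 0.33, adjusted p = 4.1e-07). The cystine exporter gene Ctns was at 206, 235, 186 and 216 CPM in jejunum at P6, 161, 198, 155 and 222 in ileum at P6, 30.6, 28.2, 31.4 and 31.0 in jejunum at P36 and 24.9, 19.6, 13.2 and 20.8 in ileum at P36. Its ages were separate in both regions, and its P36 jejunum was above its P36 ileum. Ctns fell 6.95-fold in the jejunum (log2 fold change -2.80 ± 0.18, edgeR adjusted p = 3.1e-09) and 9.40-fold in the ileum (-3.23 ± 0.18, adjusted p = 9.44e-10).

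Mcoln1 encodes TRPML1, the channel that releases calcium from lysosomes. It went from 177 to 231 CPM (P6) down to 26.4 to 31.9 CPM (P36) in jejunum and from 101 to 201 CPM (P6) down to 16.9 to 35.7 CPM (P36) in the ileum, falls of 7.06-fold (edgeR adjusted p = 4.63e-08) and 5.98-fold (adjusted p = 1.24e-07). Npc1, which exports cholesterol from the lysosome, went from 63.2 to 75.6 CPM (P6) down to 34.1 to 40.5 CPM (P36) in the jejunum (log2 fold change -0.88 ± 0.25, edgeR adjusted p = 0.00845) and from 89.8 to 117 CPM (P6) down to 16.5 to 59.9 CPM (P36) in the ileum (-1.45 ± 0.26, adjusted p = 0.000191).

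Of the 2 regulators, Tfeb (mm10 chr17:47737037-47792416, plus strand) was at 54.6, 50.1, 50.8 and 48.4 CPM in jejunum at P6, 40.2, 37.4, 49.7 and 2.21 in ileum at P6, 12.2, 10.1, 12.3 and 11.1 in jejunum at P36 and 11.2, 6.92, 8.90 and 9.18 in ileum at P36. It was higher at P6 than at P36 in the jejunum without overlap, and in the ileum in every library but replicate 4 at P6, which was the lowest of the 16. Tfeb has a GC content of 63.2%, and its log2 level in that library was -4.19 relative to the other 3, the largest deviation among the 28 members. Over the 28 members such deviations fell with GC content (Spearman's rho -0.656), but Cd63, next in GC content at 58.1%, was at 0.33. Whether GC content bears on the Tfeb value was not tested. Tfeb fell 4.46-fold in the jejunum (log2 fold change -2.16 ± 0.53, edgeR adjusted p = 0.00298) and 3.57-fold in the ileum (-1.84 ± 0.53, adjusted p = 0.00791). Without ileum replicate 4 at P6 the ileum value was -2.23 (edgeR adjusted p = 5.67e-09), and with the ileum libraries fitted alone it was -1.82 (adjusted p = 0.0555).

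Tfe3 was at 44.9, 46.1, 44.4 and 45.1 CPM in jejunum at P6, 36.3, 37.0, 40.1 and 31.3 in ileum at P6, 33.2, 35.0, 34.9 and 32.0 in jejunum at P36 and 33.3, 25.4, 21.8 and 29.5 in ileum at P36. The groups lay close together, and the ileum ages overlapped. The differences were small, -0.42 ± 0.13 in the jejunum (edgeR adjusted p = 0.0116) and -0.40 ± 0.13 in the ileum (adjusted p = 0.0152) on the log2 scale. Leaving out P36 jejunum replicate 3 gave an adjusted p of 0.06, and leaving out P36 ileum replicate 3 gave 0.0515. With the ileum libraries fitted alone it was 0.12.

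TFEB and TFE3 are known to bind the palindrome CACGTG, with TCACGTGA, which contains it, as a preferred form. Both strings of letters read the same on either strand. RefSeq promoter windows (GRCm38.p6, 250 bases before to 50 after the gene start) were at hand for 26 of the 33 members and for 27025 genes in all. The gene start here is that of RefSeq. It can differ from the coordinates printed above, which come from the annotation used for counting, as it does for Lamp1. CACGTG was in the windows of 6 of the 26 members (23.1%) and in 7.24% of all windows. TCACGTGA was in 4 of the 26 (15.4%) and in 1.01% of all. The 27025 windows were not limited to the genes tested and were not matched for base content. Known targets of these factors include many V-ATPase and lysosomal genes, so the higher share among members is no result of these data. The 6 genes were Atp6v1a, Atp6v0b, Atp6v0d1, Atp6v0e, Lamp1 and Mcoln1. They are among the 25 of 28 tested members that fell in both regions, so the fall does not set them apart. Their sites are shown with the motif in capitals and 5′ to 3′ on the strand of the gene. The positions of the motif's CACGTG relative to the gene start were -131 for Atp6v1a (chr16:44139373-44139402), -3 for Atp6v0d1 (chr8:105566050-105566079), 4 for Atp6v0e (chr17:26676387-26676416), -45 for Mcoln1 (chr8:3500462-3500491), -18 for Atp6v0b (chr4:117887330-117887359) and -61 for Lamp1 (chr8:13159088-13159117).
Atp6v1a: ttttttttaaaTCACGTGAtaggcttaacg
Atp6v0d1: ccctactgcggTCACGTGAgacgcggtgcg
Atp6v0e: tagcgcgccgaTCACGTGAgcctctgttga
Mcoln1: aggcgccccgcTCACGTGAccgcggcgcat
Atp6v0b: gggtcggcgcatCACGTGcgccggtcaggt
Lamp1: agggcaagatatCACGTGgtccagcgccca
Lamp1 had 4 copies of CACGTG in its window, at -61, -45, -28 and -15, Atp6v0b had 2 and Mcoln1 had 2. A match is a string of letters and not a measured binding site. Members without a match include Slc17a5, Ctns, Cln3 and Lamp2, which also fell in both regions. Windows for Atp6v1b2, Atp6v1c1, Atp6v1g1, Atp6v1h, Atp6v0a2, Atp6v0d2 and Npc1 were not analysed here. Whether the match bears on the fall was not tested.

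Other genes of the pump and the lysosomal membrane were taken from 4 further lists. Over all genes tested, 26.9% fell and 24.7% rose in the jejunum, and 30.1% fell and 25.5% rose in the ileum. Of 15 tested further V-ATPase subunits and assembly factors, 9 fell and 1 rose in each region (medians -0.91 and -0.87 on the log2 scale). Dmxl2 and Wdr7, which encode parts of the rabconnectin complex that helps V1 and V0 assemble, fell by log2 fold changes of -4.47 and -1.62 in the jejunum and -4.83 and -2.25 in the ileum. Tmem9, a regulator of the pump, fell by -5.92 and -4.64. The gene that rose was Atp6v0e2, an isoform of subunit e (2.03 and 1.12). Of 37 tested further lysosomal membrane proteins, 28 fell and 6 rose in the jejunum and 26 fell and 4 rose in the ileum (medians -0.98 and -1.06). Mcoln3, a channel related to Mcoln1, was at 310.3 to 563 CPM in jejunum and 291 to 719 CPM in ileum at P6, and at 0.746 to 2.82 and 0.0791 to 0.276 CPM at P36. Of 45 luminal hydrolases and helpers, 37 fell and 3 rose in the jejunum and 40 fell and 1 rose in the ileum (medians -2.36 and -2.51).

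Among 18 genes of nutrient sensing at the lysosome and control of the TFE factors, 8 fell and 0 rose in the jejunum and 10 fell and 1 rose in the ileum (medians -0.61 and -0.81). The shares over all genes were again 26.9% and 24.7% in the jejunum and 30.1% and 25.5% in the ileum. Tfec, another relative of Tfeb (mm10 chr6:16833381-16898441, minus strand), had 206, 177, 163 and 171 CPM in jejunum and 191, 185, 175 and 347 CPM in ileum at P6. At P36 it had 15 counts over the 4 jejunum libraries (95% Poisson interval 8.40 to 24.7) and 3 over the 4 ileum libraries (0.619 to 8.77). The P6 libraries held 15362 and 18447 counts of it, and both falls passed the test (edgeR adjusted p = 1.95e-10 and 1.37e-10). Fnip2 and Flcn, which form the folliculin complex that controls TFEB and TFE3, fell by log2 fold changes of -3.35 and -2.43 in the jejunum and -3.41 and -2.77 in the ileum. Rragd, a Rag GTPase of the same pathway, fell by -1.03 and -3.20, and its fall differed between the regions (interaction -2.18 ± 0.30, edgeR adjusted p = 0.000317).

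The second question was whether the jejunum and the ileum of the same mice differed at each age. At P6, 0 of the 28 genes were higher in the jejunum and 4 were higher in the ileum, against 11.1% and 14.8% of all genes tested. These 4 were Atp6v1a (-0.80 ± 0.14, jejunum over ileum on the log2 scale, edgeR adjusted p = 0.000523), Atp6ap1 (-0.55 ± 0.11, adjusted p = 0.00177), Atp6v1g1 (-0.44 ± 0.12, adjusted p = 0.0149) and Atp6v1h (-0.52 ± 0.17, adjusted p = 0.0361). All 4 were higher in the ileum of 4 of 4 mice. So were Atp6v0d1, Atp6ap2, Lamp2, Cd63, Npc1 and Slc17a5, which were not called. Atp6v0a2, Atp6v0e, Tfeb and Tfe3, also not called, were higher in the jejunum of 4 of 4 mice. How many of all genes go 1 way in 4 of 4 mice was not counted. No member passed the study's fold minimum, which 6.50% of all genes did. At an unadjusted p below 0.05 there were 3 genes higher in the jejunum and 7 higher in the ileum, and DESeq2 called 1 and 5. The share of all genes was not counted under these rules, so these counts cannot be set against a background. The median over the 28 genes was -0.14, and over all genes -0.05.

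The P6 result depended in part on ileum replicate 4. Without it, Atp6v1h was at -0.27 (edgeR adjusted p = 0.0633), and leaving out any 1 P6 jejunum library also ended that call (adjusted p = 0.0573 to 0.0881). Atp6v1g1 was at -0.37 without P6 jejunum replicate 3 (adjusted p = 0.0538) and at -0.27 without ileum replicates 2 and 4 (adjusted p = 0.0567). With the P6 libraries fitted alone, neither Atp6v1g1 (edgeR adjusted p = 0.0539) nor Atp6v1h (adjusted p = 0.0948) was called. Atp6v1h was not called with no filter either (adjusted p = 0.0584). Conversely, Cln3, at -0.56 ± 0.30 in the full fit (adjusted p = 0.185), was at -0.85 without ileum replicate 4 (adjusted p = 5.97e-05). Scarb2, at 0.49 ± 0.20 in the full fit (adjusted p = 0.083), was at 0.66 without it (adjusted p = 0.013). Atp6v1f (-0.41, edgeR adjusted p = 0.0194) and Atp6v0d1 (-0.26, adjusted p = 0.0398) were also called higher in the ileum without it. Lamp2, at -0.38 ± 0.15 in the full fit (edgeR adjusted p = 0.0834), was at -0.22 without ileum replicate 4 (adjusted p = 0.177) and at -0.47, called higher in the ileum, without ileum replicate 2 (adjusted p = 0.0368). Slc17a5 was called higher in the ileum without ileum replicate 2 (-0.69, edgeR adjusted p = 0.0499). When the mouse was added to the model as a block, Scarb2 was called higher in the jejunum (0.52, edgeR adjusted p = 0.0398) and Slc17a5 higher in the ileum (-0.59, adjusted p = 0.0371), whereas neither was called without the block. Slc17a5 was higher in the ileum of 4 of 4 mice. Among the genes not called in the full fit, Lamp1 differed between the regions by 0.01 ± 0.14, Atp6v0a1 by 0.20 ± 0.23 and Atp6v0a2 by 0.38 ± 0.17. Tfeb was at 0.65 ± 0.51 in the full fit (edgeR adjusted p = 0.373) and at 0.27 without ileum replicate 4 (adjusted p = 0.16). With the GC correction it was at 1.17 and called higher in the jejunum (edgeR adjusted p = 0.00134), as it was with the mouse block added (1.25, adjusted p = 0.00129). That correction keeps ileum replicate 4 and acts within groups only, so by its construction it tends to narrow the spread within groups. It moved the Tfeb value away from 0, whereas leaving out replicate 4 moved it towards 0.

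**Figure D4:**
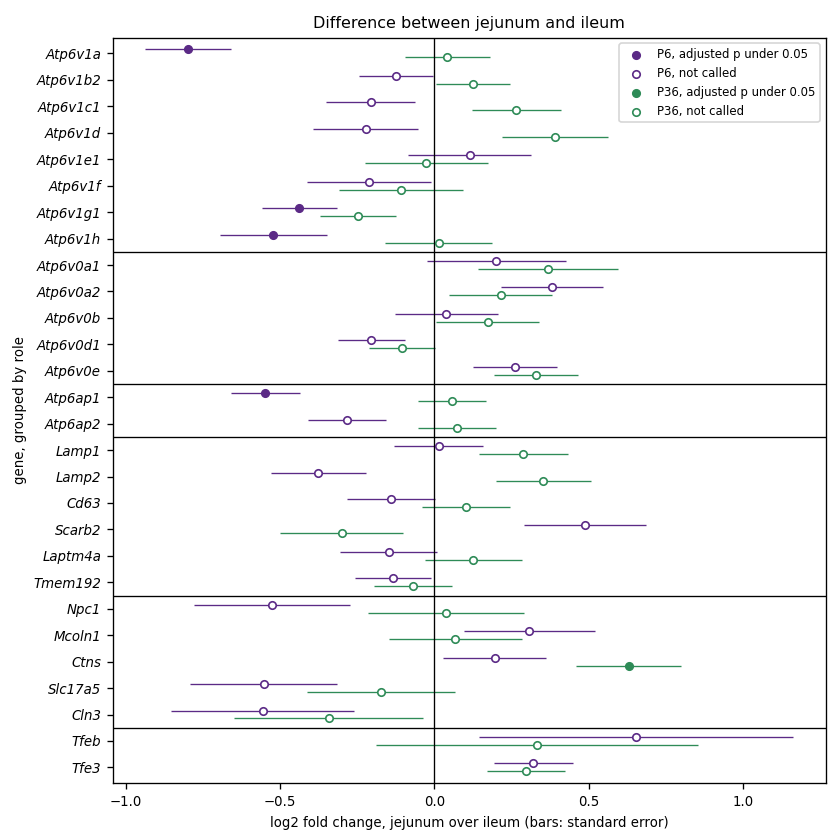
Points are log2 fold changes of jejunum over ileum for the 28 tested genes at P6 (purple) and P36 (green), with bars of 1 standard error, and filled points have an adjusted p below 0.05. The 4 filled P6 points lie left of 0, and the 1 filled P36 point, Ctns, lies right of 0.

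At P36, Ctns was higher in the jejunum (0.63 ± 0.17, edgeR adjusted p = 0.0187), in 4 of 4 mice, and 0 of the 28 genes were higher in the ileum, against 8.30% and 7.80% of all genes tested. At an unadjusted p below 0.05 the counts were 5 and 0, and DESeq2 called 1 and 0, again without a share over all genes. Further differences that did not pass the test were those of Atp6v1d (0.39 ± 0.17, edgeR adjusted p = 0.142), Atp6v0a1 (0.37 ± 0.23), Lamp2 (0.35 ± 0.15) and Tfeb (0.33 ± 0.52). Without P36 ileum replicate 3, Ctns was at 0.48 (edgeR adjusted p = 0.0426) and Atp6v0a1 at 0.14 (adjusted p = 0.652). Without P6 ileum replicates 2 and 4, which changes the spread shared by the groups, Atp6v1c1, Atp6v1d, Atp6v0e, Lamp2 and Tfe3 were called higher in the jejunum beside Ctns, and Atp6v1g1 and Cln3 higher in the ileum (edgeR adjusted p = 0.00868 to 0.046 for these 7). Without P36 ileum replicate 1, Lamp1 (0.41, edgeR adjusted p = 0.0363) and Tfe3 (0.40, adjusted p = 0.0348) were called higher in the jejunum. The 28 genes had a median of 0.09, and all genes one of -0.04. Like Ctns, the uncalled Atp6v1c1, Atp6v1d, Atp6v0b, Atp6v0e, Lamp1, Lamp2, Laptm4a and Tfeb were higher in the jejunum of 4 of 4 mice. Atp6v1g1, Atp6v0d1 and Scarb2, not called either, were higher in the ileum of 4 of 4 mice.

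The third question was whether the fall with age differed between the regions, tested as the region by age interaction, which 8.69% of all tested genes passed. Among the 28 genes 3 passed, all with the larger fall in the ileum. They were Atp6v1a (-0.84 ± 0.20, edgeR adjusted p = 0.0134), Atp6ap1 (-0.60 ± 0.16, adjusted p = 0.0245) and Lamp2 (-0.73 ± 0.22, adjusted p = 0.0473), where the value is the ileum's log2 fold change with age minus the jejunum's. With the mouse as a block, Lamp2 was no longer called (-0.71, edgeR adjusted p = 0.0808), nor was it when any of 11 single libraries was left out (adjusted p = 0.0602 to 0.0998). Atp6ap1 lost its call without P6 jejunum replicate 3 or 4 or P36 jejunum replicate 1 or 4 (adjusted p = 0.0528 to 0.0615). Atp6v1a kept its call in every alternative fit. Scarb2 had the larger fall in the jejunum. It was not called in the full fit (0.79 ± 0.28, adjusted p = 0.0997) and was called without ileum replicate 4 at P6 (0.96, edgeR adjusted p = 0.0198) and without P36 ileum replicate 1 (0.94, adjusted p = 0.0297). At an unadjusted p below 0.05, 6 genes fell more in the ileum and 1 more in the jejunum, and DESeq2 called 3 and 0. No share over all genes was counted for these.

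**Figure D5:**
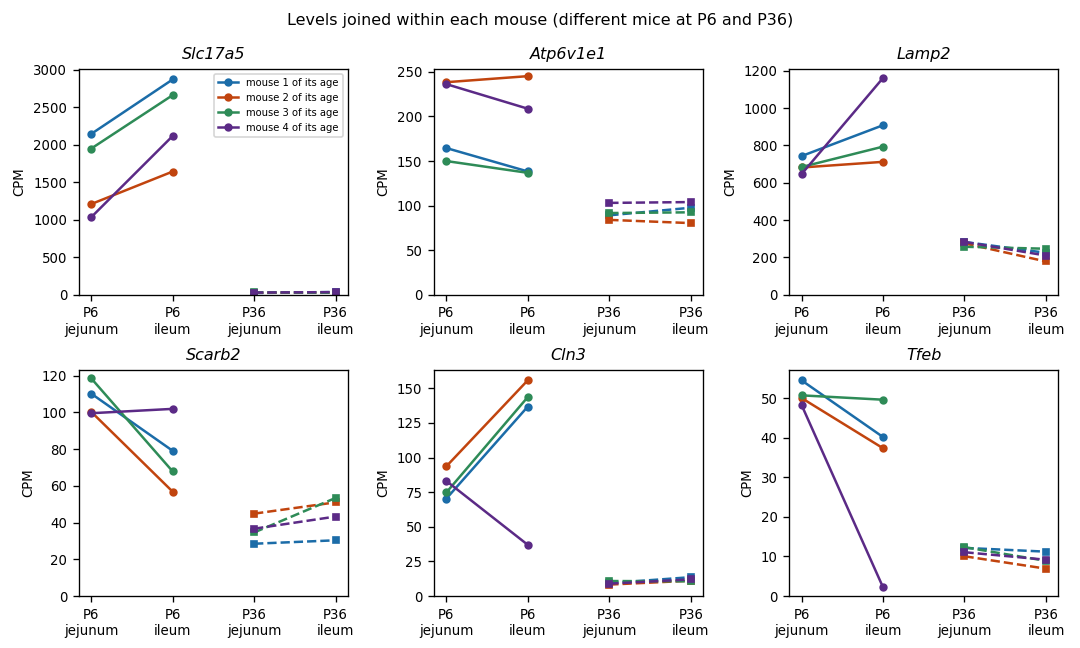
Lines join the jejunum and ileum libraries of each mouse for 6 genes, with CPM on axes that start at 0. Circles with full lines are P6 mice and squares with dashed lines are P36 mice, which are different animals. At P6 Slc17a5 and Lamp2 rise towards the ileum in 4 of 4 mice, Scarb2 falls towards the ileum in 3 of 4, and mouse 4 goes against the other 3 in Cln3.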

How the data were processed

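Epithelial RNA of the 16 libraries was made into stranded mRNA libraries and sequenced in pairs. Per the labels and the study's methods, the authors used Trimmomatic 0.38 for trimming and STAR (2.5.3 in the submitters' processing notes) for alignment to mm10, and deposited raw counts per gene from featureCounts of Subread 1.6.3. All 16 count files were used, and 0 columns belonged to other samples.

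Genes were filtered by the default of edgeR's filterByExpr. The 4 groups were fitted together with TMM factors and the quasi-likelihood test of edgeR 4.0.16 (R 4.3.3, limma 3.58.1), with p-values adjusted by Benjamini-Hochberg over all 13429 genes tested. Standard errors are the absolute log2 fold change divided by the square root of F. Levels are CPM on TMM-scaled library sizes. The members and lists were chosen with earlier results of these data known. Members with isoforms among the members, the largest differences of each role, Lamp1, Lamp2, Tfeb and Tfe3 were given in every library, with others by range. Tcirg1 was added as a subunit a isoform, and Atp6v1e1 was given in every library after its values were seen. From the other lists, genes were named by smallest adjusted p. Sequences are from RefSeq (GRCm38.p6).

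Replicates are separate mice, and the labels give both regions of a mouse the same number. Same-mouse libraries deviated together (r = 0.157 to 0.391 at P6 and 0.240 to 0.347 at P36), so the mouse was used as a block in an alternative fit. Other alternatives were DESeq2 1.42.0, RLE factors, library totals, 2 other filters, sex as a covariate, fits of 8 libraries and leaving out each library. The GC correction and the omission of P6 ileum replicates 2 and 4 together, and the test of isoform shares within mice, were chosen after seeing the data. The GC correction removed from each library the smooth (loess) trend on GC content of its deviations from its group mean. It cannot remove a GC difference between groups. Intervals and floors (3 counts) cover counting error only.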

Additional observations from a re-analysis of the deposited data

Results flagged for a closer look

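In 10 of 112 gene-by-group sets of 4 libraries, 1 library lay far from the other 3 by Dixon's test, which chance alone flags in about 1 in 20. The P6 ileum replicate 4 library accounted for 5 of them. It was the highest for Atp6ap2 (299 CPM), Atp6v1c1 (159 CPM), Atp6v1h (304 CPM) and Laptm4a (285 CPM) and the lowest for Cln3 (36.9 CPM). The lowest libraries were also P6 jejunum replicate 3 for Atp6ap2 (175 CPM) and Atp6v1f (68.8 CPM), P36 jejunum replicate 2 for Atp6v1f (41.0 CPM) and P36 ileum replicate 2 for Atp6ap2 (162 CPM). The highest for Atp6v1d in the P36 jejunum was replicate 1 (54.4 CPM).

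The change with age differed between the regions, by the interaction term of edgeR, for Atp6v1a (-0.84 on the log2 scale), Atp6ap1 (-0.60) and Lamp2 (-0.73), each with the larger fall in the ileum. Only the Atp6v1a call held in every alternative fit. The Lamp2 call was lost in 14 of them, the mouse block included (edgeR adjusted p = 0.0808), and the Atp6ap1 call in 5.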

How the results depend on the processing

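No member's called direction reversed. Under the fold minimum, 0 genes were higher and 5 lower at P36 in the jejunum, 0 higher and 10 lower in the ileum, and 0 were called for the regions at either age or for the interaction. In the jejunum, 2 genes were higher at P36 with no filter and without P6 ileum replicates 2 and 4, the second being Atp6v0a4. With the replicate block (mouse), 1 gene (Scarb2) was higher in the jejunum at P6, and with DESeq2 1 other gene (Tfe3). The block also ended the Lamp2 interaction and added Slc17a5 at P6. Beside these it left every count within 1.5 times. The GC correction gave 3 genes higher in the jejunum at P6, 4 at P36, and 1 positive and 5 negative interactions. With the block as well these were 3, 4, 1 and 6, and 1 gene was higher in the ileum at P36. Library totals gave 16 genes higher in the ileum at P6 and 1 at P36, and moved the median of all genes by -0.29 at P6, -0.14 at P36 and -0.15 for the interaction. At P36, 4 genes were higher in the jejunum when 8 libraries were fitted alone. Without P6 ileum replicates 2 and 4, 6 had higher levels in jejunum and 2 in ileum. With no filter, 1 interaction was negative. The share of all genes called was not counted in these alternative fits, and the causes were not tested.

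Leaving out 1 library at a time gave 0 to 1 genes higher in the jejunum at P6 (1 without P6 ileum replicate 4) and 2 to 6 higher in the ileum (2 without P6 jejunum replicate 3). At P36 it gave 1 to 3 higher in the jejunum (3 without P36 ileum replicate 1). It gave 0 to 1 positive interactions (1 without P6 ileum replicate 4 or P36 ileum replicate 1) and 1 to 3 negative (1 without P6 jejunum replicate 3 or 4 or P36 jejunum replicate 1 or 4). The Atp6v0a1 share differed with age by -29.9 to -28.9 points in the jejunum and -39.1 to -35.3 in the ileum, and between the regions at P6 by -7.29 to -3.55. With the replicate block, as sign flips within mice, the P6 difference between the regions (-6.09) was not called (exact adjusted p = 0.125).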
